A study of Mus musculus with 3 samples.

Results

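The genes described here encode the protein components of the cytosolic ribosome, together with a few close paralogues of them. They were taken by symbol from the annotation of the array: large subunit genes written Rpl or Rplp, small subunit genes written Rps, and Rpsa. Of 17097 named genes, 70 met the rule, 45 of the large and 25 of the small subunit, and a gene with several probe sets was represented by the one with the highest mean. RNA came from mammary cells that carried high CD49f on their surface and high green fluorescence from the Lgr5-IRES-GFP allele, a reporter at the locus of the Wnt target gene Lgr5. Embryos were female and collected at embryonic day 14, and the labels name no strain. The design text is read here as 1 pool of a litter's females per array, which gives 3 biological replicates of a single group without any control or wild-type samples. Per the labels, epidermis and mammary gland were digested together, 813 or 2000 cells were sorted per sample, and cDNA was amplified for 25 cycles. The labels do not assign those cell numbers to samples. The reporter marks whichever cells transcribe Lgr5, and pooling hides differences between embryos.

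The ribosome has a small subunit that reads the mRNA and a large subunit that joins amino acids, and each consists of ribosomal RNA and a fixed set of proteins. Most of these proteins are made in equal number, and their genes are transcribed strongly in growing cells. Their mRNAs often begin with a 5′ terminal oligopyrimidine (TOP) sequence, through which mTOR signalling and the protein LARP1 control their translation. A few genes have a further copy that is used in particular tissues, such as Rpl3l in heart and skeletal muscle and Rpl39l in male germ cells. Reduced dosage of some ribosomal proteins stabilises p53, and in mice this alters skin pigmentation and skeletal patterning.

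Values are log2 expression per probe set, so a difference of 1 is a doubling of signal. A gene was called above background when its value exceeded the 95th percentile of 74 olfactory and vomeronasal receptor genes on the same array (6.14, 6.17 and 5.99 on replicates 1, 2 and 3), tested over the arrays with limma. Array medians over all probe sets were 6.25, 6.25 and 6.52. All 7 genes on an epithelial list were above background, including Krt5 and Krt14. The list also holds Lgr5 and Itga6 (the CD49f gene), on which the cells were sorted. Of markers of other cells, 7 of 8 mesenchymal, 3 of 6 erythroid, 3 of 7 leukocyte, 2 of 5 neural crest and 1 of 7 endothelial genes were above background. Apart from the mesenchymal list, these shares were below the 55.1% of all named genes that were above background. The median distance above the threshold was 4.27 for the epithelial and 5.01 for the mesenchymal list, so levels did not set the epithelial genes apart. In bulk RNA, fewer cells of a type and less RNA per cell cannot be told apart.

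Ribosomal protein genes were detected almost without exception and far above the threshold. Of the 70 genes, 69 were above background, against the same 55.1% of all named genes, with adjusted p from 5.38e-06 to 0.00349 (limma, Benjamini-Hochberg over 17097 genes). The exception was Rpl3l. The median distance above the threshold was 5.57 log2 units for the 70 genes and 0.78 for all named genes. A mean distance of at least 4 was reached by 60 of the 70 and by 5.78% of named genes. With the stricter threshold set by the brightest antigenomic control, a probe set designed to match no mouse transcript, 67 of the 70 were called, against 31.6% of named genes. A further threshold was set by genes restricted to other organs, the highest of these thresholds on replicates 1 and 2 but not on replicate 3, and 64 of the 70 passed it, against 18.6% of named genes.

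**Figure D1:**
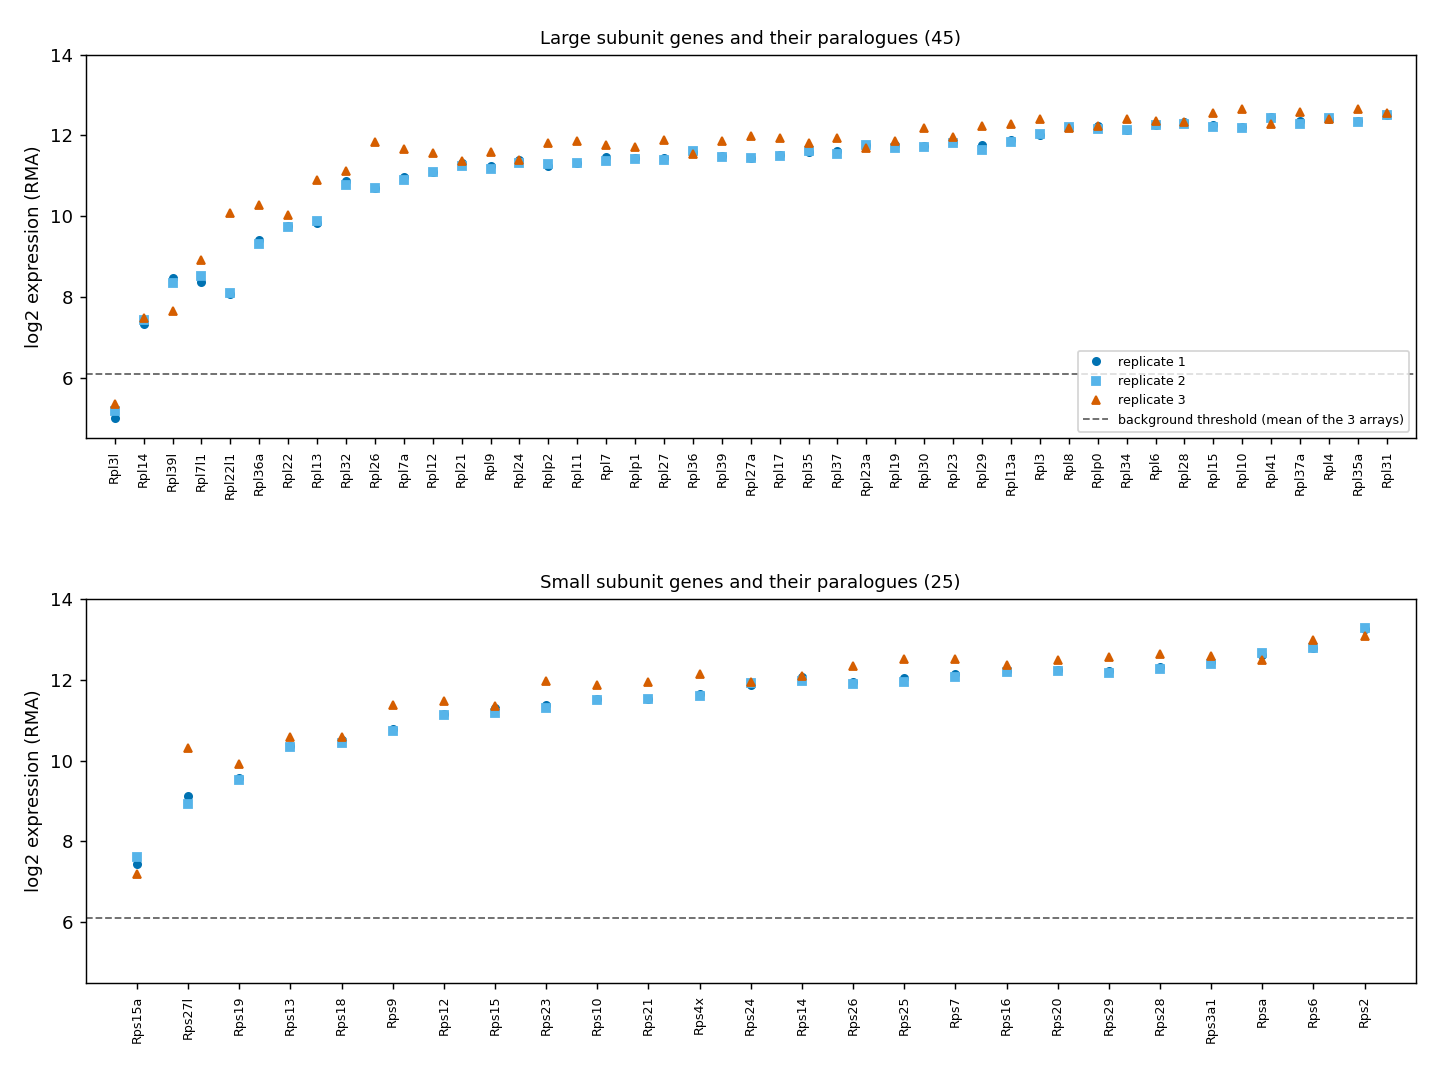
Log2 expression of each of the 70 genes on the 3 arrays, ordered by mean, for the 45 large subunit genes (top) and the 25 small subunit genes (bottom), with the mean background threshold as a dashed line. All but Rpl3l lie above the line, and replicate 3 (triangles) is the highest of the arrays for 58 of the 69 detected genes.

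The 3 genes furthest above background belonged to the small subunit. Rps2, whose product lines the mRNA entry channel, measured 13.26 on replicate 1, 13.28 on replicate 2 and 13.09 on replicate 3, and its distance above the threshold was 7.11 (adjusted p = 5.38e-06 by limma). Rps6, which encodes the substrate of the S6 kinases, had 12.78, 12.80 and 12.98. Rpsa, the gene of the small subunit protein also known as the laminin receptor, had 12.61, 12.67 and 12.49. The arrays differed by at most 0.20 for each of the 3 genes, and each lay above the threshold on every array. Rps3a1 (12.48 ± 0.11, SD, n = 3) was the other small subunit gene among the 6 furthest above the threshold. Rps23 and Rps15, whose products sit at the decoding centre, had means of 11.56 ± 0.37 and 11.28 ± 0.09, and Rps9, of the mRNA entry site, had 10.97 ± 0.36.

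The large subunit genes reached nearly the same distances. Rpl31, a gene of the rim of the peptide exit tunnel, had 12.50, 12.50 and 12.56 on replicates 1, 2 and 3, and Rpl35a had 12.36, 12.34 and 12.65. Genes of the P stalk, the arm that recruits elongation factors, were all detected, as were 98.6% of the 70 genes and 55.1% of all named genes. Rplp0, which anchors the stalk, had 12.23, 12.16 and 12.24. Its partners Rplp1 (11.53 ± 0.16, SD, n = 3) and Rplp2 (11.44 ± 0.31) and the stalk base gene Rpl12 (11.25 ± 0.27) were also above background on each array. Rpl11, whose product binds Mdm2 together with Rpl5 and 5S rRNA when ribosome assembly fails, had 11.33, 11.31 and 11.85.

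Around the exit tunnel, all 9 measured genes were above background, as were 98.6% of the 70 genes and 55.1% of all named genes. This count does not set the tunnel genes apart from the other ribosomal protein genes. Rpl4, which reaches into the tunnel wall, had 12.41, 12.42 and 12.40. Rpl17 (11.65 ± 0.25, SD, n = 3), Rpl19 (11.77 ± 0.09), Rpl23a (11.74 ± 0.04), Rpl35 (11.67 ± 0.13), Rpl26 (11.07 ± 0.66) and Rpl39 (11.61 ± 0.22) followed. Rpl22, at 9.84 ± 0.17, had the smallest distance of the 9, at 3.74 above the threshold. Since each probe set has its own affinity, these levels do not rank the transcripts.

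Without the paralogues, the 41 large and 24 small subunit genes had median distances of 5.57 and 5.89 above the threshold. The small subunit median was higher by 0.31, and by 0.31, 0.30 and 0.26 on the 3 arrays taken singly. This difference lies between different probe sets and was not tested. It turned to -0.19 when all probe sets of a gene were averaged and was -0.0073 with the lowest probe set of each gene. All 24 small and all 41 large subunit genes were above background, so the subunits did not differ in detection.

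In 10 of these 65 genes the mean log2 value lay below 11, namely Rpl14, Rps15a, Rpl36a, Rps19, Rpl22, Rpl13, Rps13, Rps18, Rpl32 and Rps9. Rpl14 (7.32, 7.43 and 7.47 on replicates 1, 2 and 3) and Rps15a (7.45, 7.61 and 7.20) stood nearest to the threshold, at distances of 1.31 and 1.32. Neither stayed called with the brightest antigenomic control as threshold, where their distances were 0.02 and 0.04. Each was measured by 1 probe set that named it alone. For Rpl14, 4 other probe sets were listed jointly with the pseudogene Rpl14-ps1, and their means ran from 11.54 to 11.77. Rpl22 was likewise listed in a brighter probe set shared with 9430083M05Rik (11.06 ± 0.24, SD, n = 3). The shares of each gene in these jointly listed signals cannot be told apart. Rpl36a (9.40, 9.30 and 10.28) and Rps19 (9.58, 9.52 and 9.92) were the next of the core genes.

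Probe sets of the same gene often disagreed. Of the 70 genes, 34 had several probe sets, and the median gap between the highest and the lowest was 3.04 log2 units. For 9 genes (Rpl31, Rps6, Rpl17, Rps24, Rps20, Rpl37, Rpl9, Rpl21 and Rps10) the lowest probe set lay below the threshold. Rps6 had the widest gap, 7.76, with probe sets at 12.86, 7.14 and 5.10. With the lowest probe set of every gene, 60 of the 70 were still above background, against 41.3% of named genes. Ribosomal protein genes have many processed pseudogenes. Of the 70, 22 were represented by a probe set that the manufacturer marks as able to match transcripts of other genes. Without such probe sets 59 of 62 remaining genes were called, against 53.7% of the named genes left, and Rpl21 and Rps20 were not (distances of -0.21 and 0.36).

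**Figure D2:**
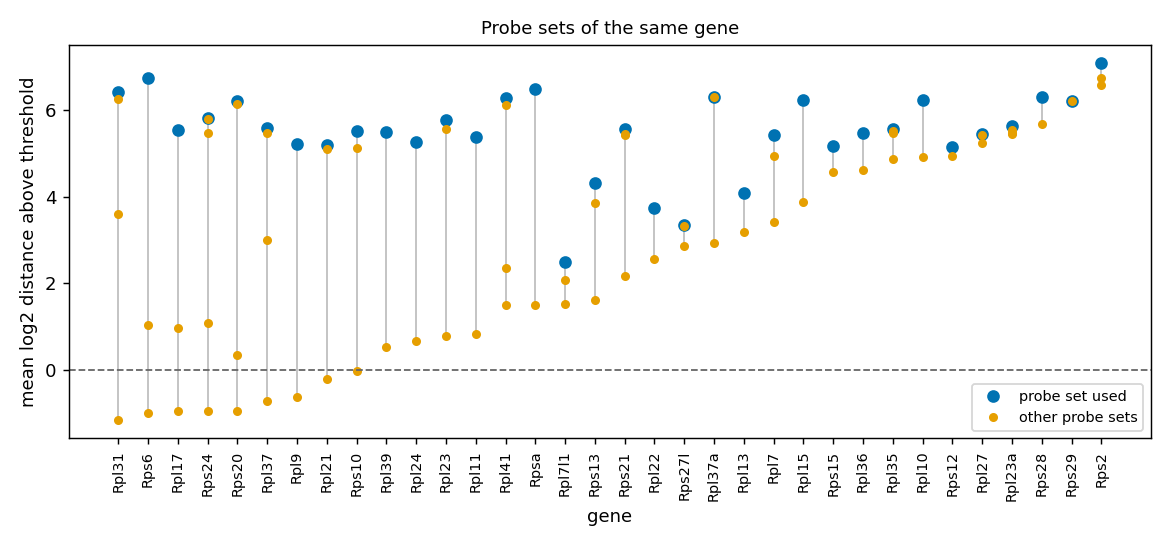
Mean log2 distance above the background threshold for every probe set of the 34 genes with several, ordered by the lowest one. Large blue points mark the probe set used and small orange points the others, and 9 genes have an orange point below the dashed threshold line.

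Genes tied to Blackfan-Diamond anaemia, a human ribosome disorder, were measured in 14 of 18 cases, and all 14 were above background. Among them, Rps19, the most often mutated gene, had a mean of 9.67 ± 0.22 (SD, n = 3), Rps24 had 11.92 ± 0.04, Rps26 had 12.07 ± 0.25, Rps7 had 12.25 ± 0.23 and Rps29 had 12.33 ± 0.22. Genes whose mouse mutants show pigment, skin or skeletal phenotypes were above background in 5 of 5 measured cases. Rps20, which with Rps19 underlies dark skin mutants, had 12.25, 12.23 and 12.49. Rpl24, the gene of the belly spot and tail mutant, had 11.39, 11.30 and 11.39. Rpl27a, the gene of the sooty foot ataxia mutant, had 11.45, 11.43 and 11.97. Nearly every ribosomal protein gene was called, so these counts do not set the disease and mutant genes apart.

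The TOP sequence was looked for at the annotated transcript starts of RefSeq (GRCm38.p6), where 56 of the 70 genes had a listed promoter. A start counted as TOP-like when its first base was C and at least 4 bases of C or T followed on the strand of the gene, at any listed start of the gene. This held for 11 of the 56 genes (19.6%), against 2.96% of the 13605 named genes with a promoter and 2.51% of all 32851 listed promoters, and for 0 of 65 mitochondrial ribosomal protein genes. Absence says only that the annotated start does not have these letters. The windows below run from 10 bases before the start to 20 from it, and capitals mark the pyrimidine run that opens the transcript. The 11 genes lay at both ends of the range of levels: Rps6 and Rpl35a were among those furthest above background, and Rpl14 and Rps15a were nearest to it. The windows shown come from both ends and from genes between them.
Rps6, chr4:86857348-86857377, minus strand: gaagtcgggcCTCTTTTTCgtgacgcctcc
Rpl15, chr14:18270967-18270996, minus strand: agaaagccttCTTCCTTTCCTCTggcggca
Rpl28, chr7:4792955-4792984, plus strand: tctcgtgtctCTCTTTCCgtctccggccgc
Rpl35, chr2:39005112-39005141, minus strand: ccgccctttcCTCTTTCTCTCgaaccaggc
Rps10, chr17:27635225-27635254, minus strand: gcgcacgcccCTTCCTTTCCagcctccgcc
Rps18, chr17:33955646-33955675, minus strand: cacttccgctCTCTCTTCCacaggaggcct
Rpl14, chr9:120571507-120571536, plus strand: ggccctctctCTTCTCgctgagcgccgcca
Rps15a, chr7:118116128-118116157, minus strand: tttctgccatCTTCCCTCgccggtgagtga
Rplp2, chr7:141447641-141447670, plus strand: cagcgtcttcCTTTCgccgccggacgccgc

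None of the 5 measured paralogues (Rpl3l, Rpl39l, Rpl22l1, Rps27l and Rpl7l1) had a TOP-like start. Their windows follow for comparison, and capitals here mark the motif CCGGAAGT, the core site of ETS factors such as Gabpa. This motif, on either strand of the 300 bases of a promoter, was present in 12 of the 56 genes (21.4%), in 15.4% of mitochondrial ribosomal protein genes, in 6.67% of named genes and in 3.89% of all promoters. Read on the opposite strand it contains pyrimidines, so it can overlap a TOP-like run. The TATA box motif TATAAA was present in 7 of the 56 genes (12.5%), near the 11.8% of named genes.
Rps27l, chr9:66946076-66946105, plus strand: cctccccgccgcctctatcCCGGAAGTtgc
Rpl22l1, chr3:28805498-28805527, plus strand: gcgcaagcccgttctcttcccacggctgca
Rpl39l, chr16:10170218-10170247, plus strand: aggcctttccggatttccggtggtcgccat
Rpl7l1, chr17:46782637-46782666, minus strand: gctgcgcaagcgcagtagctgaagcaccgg
Rpl3l, chr17:24727816-24727845, plus strand: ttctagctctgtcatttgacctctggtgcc

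The listed paralogues Rpl10l and Rps4l had no probe set that named them alone and were not measured. Of the 5 measured paralogues, 4 were above background, against 55.1% of all named genes. Rpl3l, the striated muscle paralogue of Rpl3, was not: it had 5.01, 5.16 and 5.34 on replicates 1, 2 and 3, below the threshold on every array (distance -0.93, adjusted p = 1 by limma). Rpl3 itself had 12.02, 12.02 and 12.39. Striated muscle genes were above background in 3 of 15 cases (Mb, Casq1 and Ryr1), and Ckm (6.07 ± 0.21, SD, n = 3) and Actn2 (5.43 ± 0.37) were not.

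Rpl39l, known as the male germ cell paralogue of Rpl39, was detected. It had 8.45, 8.33 and 7.65 on replicates 1, 2 and 3, a distance of 2.04 above the threshold (adjusted p = 0.000304 by limma). Rpl39 had 11.50, 11.47 and 11.87, so replicate 3 was the lowest array for Rpl39l and the highest for Rpl39. Testis genes were above background in 4 of 14 cases, among them Prm1 (8.02 ± 0.08, SD, n = 3), Tnp2 (6.76 ± 0.31) and Ldhc (6.91 ± 0.23), while Prm2 (6.20 ± 0.21) and Tnp1 (4.72 ± 0.19) were not. The germ cell marker Ddx4 stood at 3.85 ± 0.11, also not called. Rpl39l lost its call with the threshold of organ-restricted genes, where its distance was 0.38.

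The 3 more widely expressed paralogues were detected on each array. Rps27l, a p53-responsive paralogue of Rps27 (itself not analysed here), had 9.14, 8.92 and 10.32 (adjusted p = 0.000395 by limma), and kept its call with the organ-restricted threshold. Rpl22l1, which acts beside Rpl22 in haematopoietic and embryonic tissue, had 8.07, 8.10 and 10.09 (adjusted p = 0.00349). Replicate 3 stood apart for both genes, and replicates 1 and 2 were closer for Rpl22l1 than for Rps27l, whose difference of 0.21 was the largest of the 69 detected genes. Rpl7l1, a nucleolar relative of Rpl7 that takes part in assembly of the large subunit, had 8.37, 8.52 and 8.91 (adjusted p = 0.000177), and its arrays were closer together. Under the organ-restricted threshold, Rpl22l1 and Rpl7l1 lost their calls, at distances of 0.98 and 0.83.

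**Figure D3:**
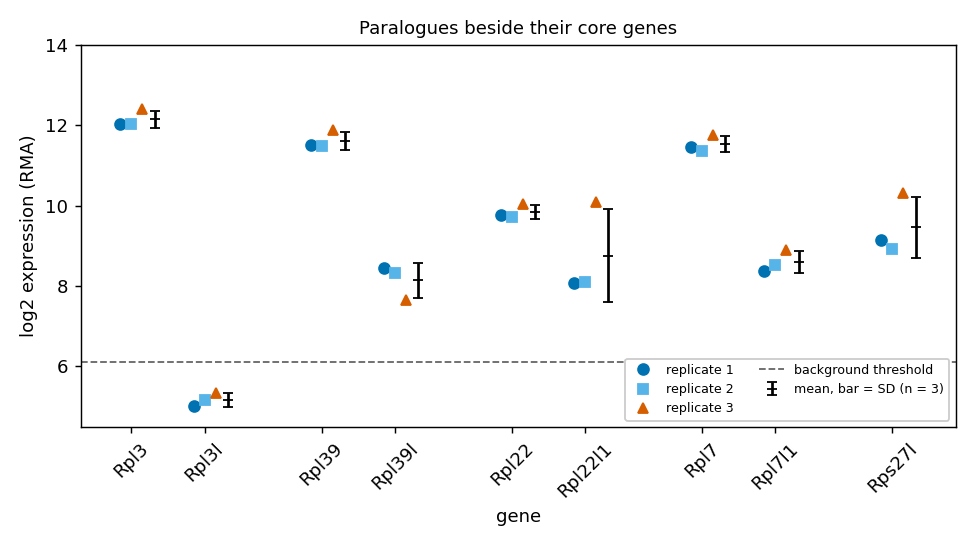
Log2 expression of 5 paralogues on the 3 arrays, beside the core gene where it was measured, with mean and SD (n = 3) to the right of the points and the background threshold as a dashed line. Rpl3l lies under the line on all arrays, and Rpl22l1 and Rps27l have their highest point on replicate 3 by more than 1 log2 unit.

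The range over the 3 arrays was under 0.5 log2 units for 53 of the 69 detected genes (76.8%), against 51.4% of all genes above background, and the median SD was 0.20 against 0.26. Ribosomal protein genes lay higher on the scale than most genes, and the SD was not compared at matched levels. The range was also counted among genes with a mean log2 value of at least 11, a comparison added after the data were seen. There, 46 of 55 ribosomal protein genes (83.6%) had a range under 0.5, against 72.7% of the 374 genes above background, these 55 included. Rpl8 varied least, with 12.20, 12.20 and 12.19, followed by Rpl4, Rpl28, Rpl31, Rpl36 and Rpl23a. These 6 genes differed by at most 0.07 between arrays. The highest value of any probe set on the arrays was 13.60. Rpl8, Rpl4, Rpl28 and Rpl31 had means from 12.20 to 12.52, and Rpl36 and Rpl23a had lower means of 11.58 and 11.74. The widest ranges belonged to Rpl22l1 (2.02), Rps27l (1.39), Rpl26 (1.15), Rpl13 (1.06), Rpl36a (0.98) and Rpl39l (0.81).

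Replicates 1 and 2 were alike in these genes, and replicate 3 was higher in most. The median absolute difference between replicates 1 and 2 was 0.045 for the 69 genes and 0.12 for all genes above background. The 69 genes lay higher on the scale than most genes, and this difference was not compared at matched levels. Replicate 3 was the highest array for 58 of the 69 genes (84.1%), against 61.7% of genes above background, and the lowest for 9, against 28.8%. Replicate 3 exceeded the average of replicates 1 and 2 by a median of 0.32, with 0.31 for large and 0.33 for small subunit genes, against 0.24 for all genes above background. Each litter was measured once, so these differences have no replicate and no test, and the litter cannot be told apart from its array, its number of cells or its amplification.

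The size of that shift depended on how the arrays were scaled. The median over all probe sets was 6.52 on replicate 3 against 6.25 on the others. As deposited, 60 of 69 genes were higher on replicate 3, against 66.8% of all genes above background. After the array medians were equalized, the median shift was 0.043 for ribosomal protein genes and -0.032 for all genes, and 40 of the 69 were higher, against 47.8%. After quantile normalization it was 0.10 against -0.13, and 41 were higher and 27 lower, against 39.6% of all genes higher. The ribosomal protein median exceeded that of all genes by 0.076 as deposited, by 0.076 with equalized medians, which subtracts 1 constant per array, and by 0.23 after quantile normalization.

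A few genes stood further from the other arrays than the rest. Rpl22l1 was higher on replicate 3 by 2.00, and by 1.58 after quantile normalization. Rps27l was higher by 1.29, and by 0.85 after quantile normalization, and its 3 probe sets gave 1.29, 1.49 and 1.26. Rpl26, of the exit tunnel, was higher by 1.15 and Rpl13 by 1.03, or by 0.84 and 0.63 after quantile normalization. With its lowest probe set Rpl13 was higher by 0.41. These were the 4 of 69 genes with a shift over 1, against 9.26% of all genes above background. None of the 69 was lower by more than 1, against 1.52%. Rpl39l went the other way, by -0.75 and by -1.13 after quantile normalization. The 3 probe sets of Rpl7l1 did not share a direction (0.46, -0.19 and 0.73).

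**Figure D4:**
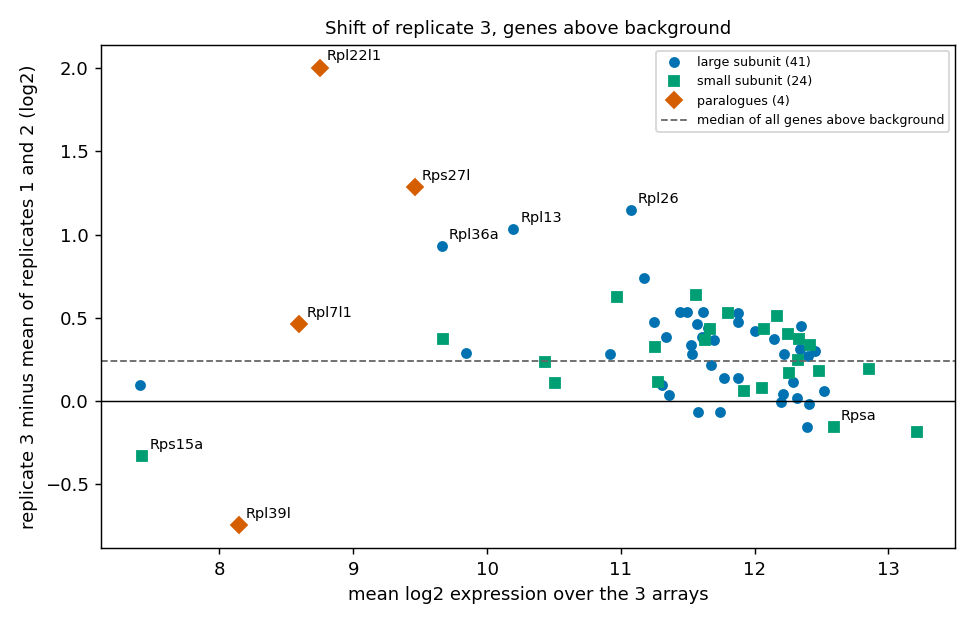
Replicate 3 minus the mean of replicates 1 and 2 (log2) against mean log2 expression for the 69 detected genes, with large subunit genes as circles, small subunit genes as squares and paralogues as diamonds. The dashed line is the median of all genes above background (0.24), and Rpl22l1 (2.00) and Rpl39l (-0.75) lie at the extremes.

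Markers of other cells also differed between replicate 3 and the other arrays. Of the 3 detected erythroid genes, all 3 were lowest on replicate 3, with Hba-a1 at 12.27, 12.61 and 11.19, and 5 of 7 detected mesenchymal genes were lowest there. Pecam1, the 1 detected endothelial gene, had 8.12, 8.30 and 6.47. Of the 3 detected leukocyte genes, Cd68 was highest and the other two lowest on replicate 3, and both detected neural crest genes, Sox10 and Pmel, were highest there. Of the 7 listed epithelial genes, 6 were highest on replicate 3. Of all genes above background, 61.7% were highest and 28.8% lowest there. Array medians over all probe sets were 6.25, 6.25 and 6.52, and the values of these marker lists are as deposited, without rescaling. The medians of the epithelial list were 10.05, 10.24 and 10.82, those of the mesenchymal list 11.30, 11.06 and 10.98, and those of the erythroid list 6.74, 6.89 and 6.09. The 3′ minus 5′ difference of the Gapdh control probe sets was -0.06, -0.08 and 0.03, and that of the Actb controls -0.56, -0.56 and -0.40. The part of cell mixture and RNA quality in the shift of Rpl22l1, Rps27l and Rpl39l was not tested.

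Other genes of the translation machinery were detected at similar shares. Fau and Rpl36al, which encode further ribosomal proteins under other symbols, had means of 11.26 ± 0.23 and 11.11 ± 0.32 (SD, n = 3). Mitochondrial ribosomal protein genes were above background in 72 of 73 cases, such as Mrpl1 (8.13 ± 0.44), Mrpl10 (8.08 ± 0.15) and Mrpl11 (9.90 ± 0.29) and not Mrpl47 (6.21 ± 0.31), with a median distance of 2.46 log2 units. The threshold of organ-restricted genes was passed by 27 of the 73, by 64 of the 70 cytosolic genes and by 18.6% of named genes.

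Translation factor genes were above background in 27 of 28 cases, with a median distance of 4.51. Eef1a1, which delivers aminoacyl-tRNA, had 13.07, 13.07 and 13.05, and the elongation factor genes Eef1b2 and Eef1d had means of 11.62 ± 0.37 and 12.07 ± 0.15 (SD, n = 3). The cap-binding gene Eif4e was the exception (6.06 ± 0.07, adjusted p = 0.937 by limma).

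Ribosome assembly genes were above background in 42 of 44 cases, with a median distance of 2.77. The nucleolar genes Fbl (11.30 ± 0.15, SD, n = 3), Npm1 (12.26 ± 0.04) and Ncl (9.84 ± 0.46) were among them, and the kinase gene Riok2 (5.18 ± 0.38) and the RNA polymerase I subunit gene Polr1b (5.95 ± 0.21) were not. All 12 measured genes on a list of regulators were above background, against the same 55.1% of all named genes. The list also holds the p53 pathway genes Mdm2, Mdm4 and Cdkn1a. Among the 12 were Mtor (9.24 ± 0.09), its partner Rptor (8.70 ± 0.13) and the S6 kinase gene Rps6kb2 (8.68 ± 0.12). Larp1, whose product binds TOP sequences, had 8.52, 8.62 and 9.14 on replicates 1, 2 and 3.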

How the data were processed

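RNA of 3 samples of 1 group was measured on Affymetrix arrays. The authors deposited log2 expression values for each probe set. RMA and affy are the tools given, per the submitters' processing notes; settings, versions and a genome build are not given in the sources used here. RMA corrects background, normalizes and summarises probes; whether the 3 arrays were normalized together is not stated. Of 45141 probe sets, 28898 were paired with 1 gene symbol, 551 with several and 15588 with none listed, besides 104 controls; the last 3 classes were left out of tests. Each of 17097 genes took its probe set with the highest mean.

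The array's threshold was subtracted and limma 3.58.1 (R 4.3.3) tested whether the mean over arrays exceeded 0 (intercept model, empirical Bayes with trend, one-sided, Benjamini-Hochberg over 17097 genes, adjusted p under 0.05). The p-values leave out the uncertainty of the threshold, and the number of arrays limits precision. The step was tested on simulated data. Python 3.11.15 with pandas 2.3.3 did the rest. The 12 alternatives changed the threshold, the probe set, the variance model, the array scale or the arrays used.

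The members, lists and tests were chosen with earlier results of these data known. All members could be named; detailed values went to members on lists of roles, paralogues, those not called, the 6 nearest to and furthest above the threshold and the 6 with the widest and the narrowest range, and of other lists to the first 3 called and first 2 not called. Ddx4, Hba-a1, Pecam1, Cd68, Sox10, Pmel and Larp1 were chosen after their values were seen. Of genes restricted to organs other than testis and muscle, 7 of 20 were above background, against 55.1% of all named genes.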

Additional observations from a re-analysis of the deposited data

How the results depend on the processing

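Of the 70 genes, 48 kept the same side of the threshold and direction in all 12 alternatives, and 14 lost a call in at least 1. The other 8 had only cross-hybridising probe sets and kept theirs in the alternatives that gave them a value. The count above background ran from 59 (without cross-hybridising probe sets, 62 genes measured) to 69. Leaving out replicate 1, 2 or 3 changed no call among the 70. With organ-restricted genes as threshold, the paralogues fell from 4 called to 1, ribosome biogenesis genes from 42 to 23 and mitochondrial ribosomal protein genes from 72 to 27. The called share of all named genes fell from 55.1% to 18.6%, and Rpl14 (-0.36) and Rps15a (-0.35) lay below that threshold. With the lowest probe set of a gene, regulators fell from 12 to 7, and the called share of all named genes from 55.1% to 41.3%. Distances in that setting became -0.75 for Rpl17, -0.0074 for Rpl21, -0.95 for Rpl31, -0.52 for Rpl37, -0.41 for Rpl9, -0.74 for Rps20, -0.75 for Rps24 and -0.79 for Rps6. Without cross-hybridising probe sets, Rpl21 was at -0.21, and only 1 of the genes Fau and Rpl36al was left. The small minus large subunit median of 0.31 became -0.19 with the mean of the probe sets, -0.0073 with the lowest and 0.12 without cross-hybridising ones, and ranged from 0.27 to 0.31 without 1 replicate. The median shift of replicate 3 was 0.32, 0.10 after quantile normalization and 0.043 with equalized medians. The cause of these changes was not tested beyond what each setting changes. Depth has no meaning for arrays, and signal near the top of the scale limits what differences can be seen. No paired analysis was possible because there is 1 group.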

Other observations

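Rpl5 and Rps3 were not among the 70 genes, since their probe sets were listed with a further gene. A probe set of Rpl5 and Dipk1a gave 12.23, 12.20 and 12.35 (log2) over the arrays, while another of the same pair had 5.71, 5.70 and 7.53. The brighter of the probe sets listed for Rps3 and the small nucleolar RNA gene Snord15b had a mean of 9.18 ± 0.21 (SD, n = 3). The control probe set for the 3′ part of 18S rRNA, the RNA of the small subunit, gave the highest signal on each array, with 13.59, 13.60 and 13.32.

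Among the 42 ribosome assembly genes above background, 5 were more than 1 log2 unit higher on replicate 3 than the mean of the others, a share near the 9.26% of all genes above background. These were Wdr12, Utp20, Wdr3, Brix1 and Rrn3, named after their values were seen. Rrn3, which encodes the factor that brings RNA polymerase I to ribosomal DNA, had 7.72, 7.74 and 9.71. The difference between litters has no replicate.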
